A study of Mus musculus with 20 samples.

Results

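*Ifitm1*, *Ifitm2* and *Ifitm3* encode interferon-induced transmembrane proteins and lie beside each other on mouse chromosome 7. They are 3 of the 17101 genes in the table and were chosen by symbol as adjacent paralogs, because they were higher in KO than in WT cells, so their KO to WT values are a description with no test. RNA was measured in 20 libraries of splenic donor T cells, sorted by flow cytometry on day 10 after transplantation, with 4 libraries in each of 5 groups. The KO donors carried floxed *Dnmt3a* (2loxP) and CD4-Cre, which deletes in T cells, and the WT donors were littermates. Donors were 6 to 12 weeks old and on the B6 background, and all cells were recovered from irradiated B6D2F1 recipients that were 8 to 12 weeks old, so that KO and WT cells shared the allogeneic setting. The KO cells, numbered 1 to 4, were sorted as CD4+, as CD8+ and as double-positive (DP) for both coreceptors, and the WT cells, numbered 2, 3, 5 and 6, as CD4+ and as CD8+. Libraries of 1 genotype that share a number are called an animal here, and nothing in the sources says whether recipients were pooled. WT DP cells were not analysed here.

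IFITM proteins are small membrane proteins of the CD225 family that sit in the plasma membrane and in endosomes, where they hinder the fusion of enveloped viruses with the cell. Ifitm1 is found mainly at the cell surface, and Ifitm2 and Ifitm3 mainly in endosomes and lysosomes. The genes are classical interferon targets, induced at short promoter elements such as the interferon-stimulated response element (ISRE) and the gamma-activated site (GAS), and T cells also express them without infection. DNMT3a, the enzyme deleted in the KO donors, methylates cytosines in CpG dinucleotides.

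In GRCm38.p6 (mm10), *Ifitm2* spans chr7:140954837-140959686 on the minus strand, *Ifitm1* spans chr7:140967429-140969827 on the plus strand, and *Ifitm3* spans chr7:141009590-141010744 on the minus strand. All 3 are protein coding, and 55.9 kb separate the first base of *Ifitm2* from the last base of *Ifitm3*. Their exons cover 627, 864 and 648 bases, in that order. The paralogs share sequence, which bears on how well reads of 47 bases can be assigned to each. Of all 47-base windows of their GENCODE transcripts, 1.70% of those of *Ifitm1*, 3.78% of those of *Ifitm2* and 6.49% of those of *Ifitm3* also occurred in another of the 3 genes. With all annotated genes counted, these shares were 5.85% for *Ifitm1*, 49.3% for *Ifitm2* and 11.2% for *Ifitm3*, the other matches lying in predicted genes with Gm symbols. How reads that fit several places were counted is not given in the sources used here, so the level of *Ifitm2* is the least certain of the 3.

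The promoters are shown because the members are known as interferon targets, so that a reader can see which of them hold the letters of an interferon element. The lines of *Ifitm1* and *Ifitm3* give, from RefSeq, the 250 bases before the start site on the gene's own strand, with ISRE matches (letters GAAANNGAAA) and GAS matches (letters TTCNNNGAA) in capitals. They lie at chr7:140967826-140968075 (plus strand) for *Ifitm1* and at chr7:141010745-141010994 (minus strand) for *Ifitm3*. Of the matching window of *Ifitm2*, chr7:140955962-140956211 (minus strand), the 30 bases around its match are given, at chr7:140955988-140956017. The start sites are those of the transcript that RefSeq lists for each window, and other annotated transcripts of *Ifitm1* and *Ifitm2* begin further upstream, so that these windows lie inside the gene spans given above and the *Ifitm2* window lies in an exon of a predicted transcript. The last line gives the first 30 transcribed bases of *Ifitm3*, which hold its matches.
Ifitm1: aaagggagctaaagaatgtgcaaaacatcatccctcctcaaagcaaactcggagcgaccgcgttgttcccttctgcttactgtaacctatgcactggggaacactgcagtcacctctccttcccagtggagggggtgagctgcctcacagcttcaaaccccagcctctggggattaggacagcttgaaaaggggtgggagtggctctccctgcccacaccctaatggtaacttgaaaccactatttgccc
Ifitm2, 30 bases around its match: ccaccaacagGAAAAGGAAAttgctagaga
Ifitm3: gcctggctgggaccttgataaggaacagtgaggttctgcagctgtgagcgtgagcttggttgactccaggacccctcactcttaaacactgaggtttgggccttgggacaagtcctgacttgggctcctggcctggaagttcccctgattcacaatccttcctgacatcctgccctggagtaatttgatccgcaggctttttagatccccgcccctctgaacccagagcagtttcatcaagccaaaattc
Ifitm3, first 30 transcribed bases: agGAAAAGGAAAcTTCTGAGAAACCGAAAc

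Over the window from 250 bases before to 50 bases after the start, searched on both strands, *Ifitm2* held 1 ISRE match, GAAAAGGAAA, at positions -46 to -37. *Ifitm3* held the same 10 letters at positions 3 to 12 and a second ISRE match, GAAACCGAAA, at positions 20 to 29, with a GAS match, TTCTGAGAA, at positions 14 to 22 that overlaps the second. *Ifitm1* held neither motif in this window. An ISRE match was present in 3.13% and a GAS match in 7.30% of the windows of 12411 promoters of genes in the table. The members' windows were poor in CpG, with 5 in *Ifitm1*, 4 in *Ifitm2* and 5 in *Ifitm3*, against a median of 18 over those promoters. A match describes letters only, and DNA methylation was not analysed here.

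Levels are given as normalized counts, which are read counts divided by a library size factor. *Dnmt3a* itself lay between 650 and 2007 in the 12 KO libraries and between 3542 and 5171 in the 8 WT libraries, without overlap. *Cd4* and *Cd8a*, which define the subsets, followed the labels: *Cd4* was 44804 to 74386 in the CD4+ groups, 8758 to 15351 in DP cells and at most 458 in the CD8+ groups. KO CD4+ animal 1 stood apart with 3771 for *Cd8a*, against at most 586 in the other CD4+ libraries. Depth was 37547651 to 46966318 assigned reads per library, and 13203 to 14677 genes had reads, except for 11783 in KO DP animal 3. In bulk RNA, a change in the share of cells that express a gene and a change in RNA per cell cannot be told apart.

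*Ifitm3*, the member best known for blocking influenza virus, was higher in KO than in WT cells in both subsets, and by more than the other members. In CD4+ cells its normalized count was 6150, 9553, 4961 and 4385 in KO animals 1 to 4 and 2102, 2396, 2163 and 1762 in WT animals 2, 3, 5 and 6. The lowest KO library exceeded the highest WT library, as it did for 12.3% of all genes tested, and the log2 fold change was 1.51 (SE 0.21). In CD8+ cells it was 1374, 4181, 1465 and 1781 in KO and 700.5, 392, 329 and 335 in WT animals. The groups again did not overlap, as for 15.2% of all genes with KO higher, and the log2 fold change was 2.24 (SE 0.37). In DP cells, which have no WT partner here, it was 1421, 5109, 2180 and 1753.

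*Ifitm2*, its closest relative in these data, was higher in KO cells by about the same factor in both subsets. In CD4+ cells it was 4795, 8695, 4196 and 4579 in KO and 2443, 3199, 2276 and 2398 in WT animals. In CD8+ cells it was 625, 1887, 846 and 1018 in KO and 520, 385, 341 and 505 in WT animals. Neither pair of groups overlapped, and the log2 fold changes were 1.06 (SE 0.21) in CD4+ and 1.22 (SE 0.30) in CD8+ cells. KO CD8+ animal 1, at 625, lay closest to the WT range. In DP cells the counts were 1013, 2793, 1576 and 1198.

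*Ifitm1* was higher in KO cells on average but not in every animal. In CD4+ cells it was 5530, 10406, 3007 and 2214 in KO and 2039, 2218, 2131 and 2284 in WT animals. In CD8+ cells it was 2879, 13148, 4169 and 1934 in KO and 2224, 1423, 1634 and 1909 in WT animals. KO animal 4 lay within the WT range in both subsets, while 3 of 4 KO animals exceeded every WT library in each. The log2 fold changes were 1.03 (SE 0.38) in CD4+ and 1.24 (SE 0.49) in CD8+ cells. In DP cells the counts were 2736, 11770, 5762 and 1522, the widest spread of any member in any group, with the highest library 7.74 times the lowest.

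Genes called higher in KO cells by limma (Benjamini-Hochberg adjusted p under 0.05) made up 8.59% in CD4+ cells, 12.6% in CD8+ cells and 6.32% in both. These shares, and those without overlap, stand beside the members' counts as background only, since the members were picked on this difference. Leaving out KO CD4+ animal 1, the library with *Cd8a* reads, gave log2 fold changes of 0.92, 1.11 and 1.5 for *Ifitm1*, *Ifitm2* and *Ifitm3* in CD4+ cells.

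**Figure D1:**
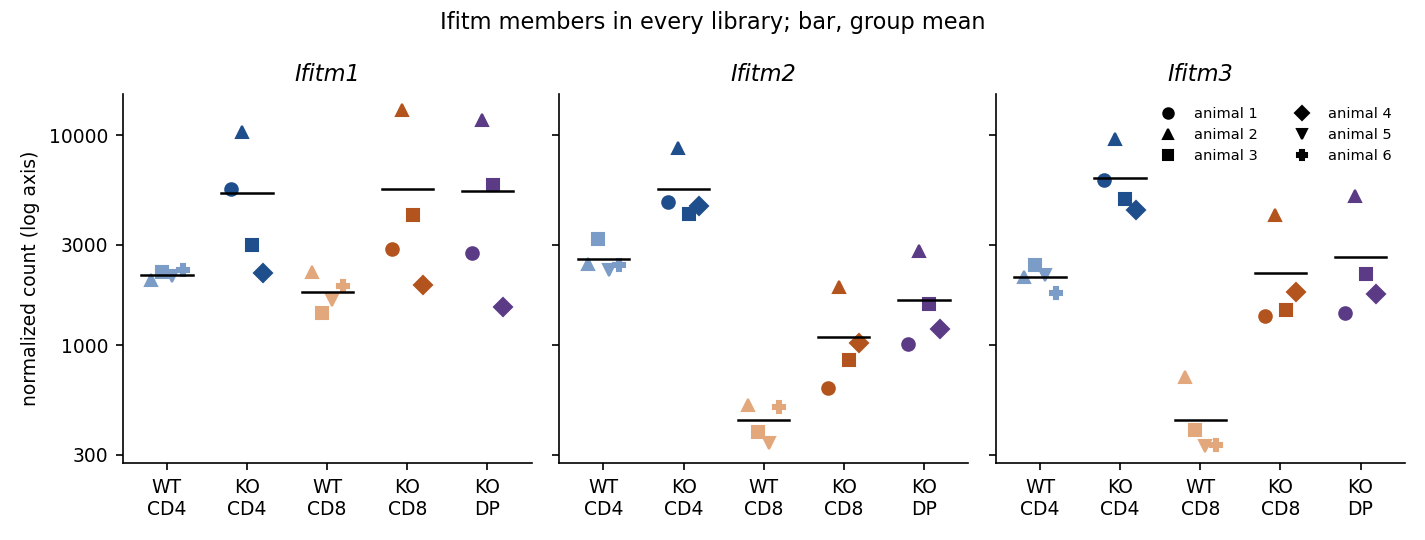
Normalized count (log axis) of *Ifitm1*, *Ifitm2* and *Ifitm3* in each of the 20 libraries by group, with a symbol per animal and a bar at the group mean. The triangle of KO animal 2 is the highest KO symbol in each group of each panel, up to 13148 for *Ifitm1*, and within each genotype the CD8+ and DP means lie below the CD4+ mean for *Ifitm2* and *Ifitm3*.

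KO animal 2 had the highest level among KO animals of each of the 3 genes in each of its 3 subsets. Its *Ifitm1* count was 2.90 times the mean of the other 3 animals in CD4+ cells, 4.39 times in CD8+ cells and 3.52 times in DP cells. For *Ifitm2* the same ratios were 1.92, 2.27 and 2.21, and for *Ifitm3* they were 1.85, 2.72 and 2.86. Being highest in all 3 KO subsets was common to 850 of 12411 genes (6.85%) in animal 2, against 5.68% to 9.68% for the other animals. Without all libraries of this animal, an omission chosen after its values were seen, the KO to WT log2 fold changes in CD4+ cells were 0.62 for *Ifitm1*, 0.82 for *Ifitm2* and 1.29 for *Ifitm3*. In CD8+ cells they were 0.69 for *Ifitm1*, 0.91 for *Ifitm2* and 1.87 for *Ifitm3*. The other 3 KO animals still averaged 2.45 times the WT mean of *Ifitm3* in CD4+ and 3.51 times in CD8+ cells, and 1.65 and 1.67 times for *Ifitm1*.

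Markers of other spleen cells were compared with the same libraries, since myeloid cells also express *Ifitm2* and *Ifitm3*. T cell markers summed to 229128 to 447582 in the 20 libraries. The summed neutrophil markers (12 of 13 listed genes in the table) had a median of 344 in KO CD4+ against 3527 in WT CD4+ cells and of 377 in KO CD8+ against 2769 in WT CD8+ cells. In KO animal 2, where the members were highest, *S100a8* and *S100a9*, the main cytosolic proteins of neutrophils, were at 0 in all 3 subsets. The macrophage and monocyte list (13 of 13 genes) summed to 17527 to 25762 in KO CD4+, 15381 to 17990 in WT CD4+, 25263 to 41120 in KO CD8+ and 21851 to 29035 in WT CD8+ cells. *Ly6c2* and *Ccr2*, which activated T cells also express, made up most of that sum, and without them the other 11 genes summed to 802 to 1917 in KO CD4+, 2324 to 3471 in WT CD4+, 646 to 2979 in KO CD8+ and 1666 to 2910 in WT CD8+ cells. The medians of this sum and of the neutrophil sum were lower in KO than in WT cells in both subsets, although the neutrophil sum of KO CD4+ animal 3 (4559) exceeded that of every WT CD4+ library (at most 3871).

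Other cell types differed in direction. Dendritic cell markers (4 of 6 genes) summed to 187 to 434 in KO and 696 to 893 in WT cells. Erythroid markers (3 of 8 genes) had medians of 237 in KO and 904 in WT CD4+ and of 218 in KO and 643 in WT CD8+ cells, and platelet markers (5 genes) of 32.5, 180, 52.8 and 224 in the same order. B cell markers (6 of 7 genes) were low and higher in KO cells, at 57.4 to 109 in KO CD4+, 9.71 to 21.1 in WT CD4+, 38.5 to 61.7 in KO CD8+ and 16.2 to 43.2 in WT CD8+ cells. Endothelial and stromal markers (9 genes) were also higher in KO cells, at 5790 to 8630 in KO CD4+, 3780 to 5147 in WT CD4+, 2917 to 4948 in KO CD8+ and 2404 to 2639 in WT CD8+ cells, and *Pecam1*, which T cells carry as well, made up most of that sum (mean 7197 in KO CD4+ cells). The part of these cells in the levels of the members, and of the other genes set beside them below, was not tested.

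The subsets differed in the level of *Ifitm2* and *Ifitm3*, a contrast that did not choose the members. In WT animals *Ifitm2* was lower in CD8+ than in CD4+ cells by a log2 fold change of -2.57 (SE 0.14), and *Ifitm3* by -2.32 (SE 0.19). Each was lower in 4 of 4 animals, with a CD8+ level of 0.12 to 0.21 times the CD4+ level for *Ifitm2* and of 0.15 to 0.33 times for *Ifitm3*, and the groups did not overlap. Both passed limma over all 12559 genes, of which 22.3% were called lower in CD8+ cells and 21.0% were lower without overlap. Only 155 genes had a lower fold change than *Ifitm2* and 195 a lower one than *Ifitm3*. *Ifitm1* differed far less, by -0.29 (SE 0.11, limma adjusted p = 0.0447), with overlapping groups (exact permutation p = 0.114, 2-sided). Its call was lost without WT CD4+ animal 3, 5 or 6 or WT CD8+ animal 3, 5 or 6 (adjusted p 0.0502 to 0.136 by limma) and with other settings given in the closing section. For *Ifitm2* and *Ifitm3* the exact permutation p was 0.0286, the smallest that 4 libraries against 4 allow, or 0.0686 adjusted over the 12 such tests of the members.

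The same order held in KO cells. *Ifitm2* was lower in KO CD8+ than in KO CD4+ cells by -2.40 (SE 0.33, limma adjusted p = 0.0052), in 4 of 4 animals and by 4.50 to 7.67 times. *Ifitm3* was lower by -1.60 (SE 0.36, limma adjusted p = 0.0363), in 4 of 4 animals and by 2.28 to 4.48 times. In this comparison 2.73% of 12189 genes were called lower and 6.18% were lower without overlap, as *Ifitm2* and *Ifitm3* were. The *Ifitm3* call was lost in 7 of 8 fits without 1 library, namely each KO CD4+ library and KO CD8+ animals 1, 3 and 4 (limma adjusted p 0.0588 to 0.0931). *Ifitm1* did not pass (-0.08, SE 0.61, limma adjusted p = 0.973), with a ratio of CD8+ to CD4+ cells from 0.52 in animal 1 to 1.39 in animal 3. With animals as a block, 2305 instead of 514 genes were called over the table, and the calls of the members were as without it. The limma adjusted p values with the block were 9.7e-06 for *Ifitm2*, 1.0e-04 for *Ifitm3* and 0.818 for *Ifitm1*.

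DP cells carry both coreceptors, and their *Ifitm2* level lay nearer to CD8+ than to CD4+ cells. Against KO CD4+ cells *Ifitm2* was lower by -1.81 (SE 0.32, limma adjusted p = 0.0256), in 4 of 4 animals and by 2.66 to 4.73 times. The call was lost without any 1 of the 4 KO CD4+ libraries or without KO DP animal 4 (limma adjusted p 0.0545 to 0.0648). With animals as a block and all libraries kept, *Ifitm2* passed (limma adjusted p = 0.0025). *Ifitm3* was lower in DP than in CD4+ cells in 4 of 4 animals, by 1.87 to 4.33 times, with a log2 fold change of -1.38 (SE 0.38). It did not pass without the pairing of animals (limma adjusted p = 0.109) and passed with animals as a block (limma adjusted p = 0.0100). Of 12175 genes, 1.26% were called lower in DP than in CD4+ cells and 6.72% were lower without overlap, and the block raised all calls from 237 to 860. *Ifitm1* again did not pass (-0.11, SE 0.63, limma adjusted p = 0.939).

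Against KO CD8+ cells, no member passed in DP cells, in a comparison where 0.00823% of genes (1 of 12153) were called. *Ifitm2* was nonetheless higher in DP cells in 4 of 4 animals, by 1.18 to 1.86 times, a log2 difference of 0.60 (adjusted p = 0.871 by limma, SE 0.38). Without the block its unadjusted limma p was 0.148, and with animals as a block it was 0.0028, or 0.406 adjusted. Over all genes, 1447 of 12153 had an unadjusted limma p under 0.05 with the block and 237 without it. *Ifitm3* was higher in 3 of 4 animals (0.22, SE 0.44, limma adjusted p = 0.930), and *Ifitm1* in 1 of 4 (-0.03, SE 0.69, limma adjusted p = 0.992). The KO to WT difference itself was also set between the subsets. For *Ifitm3* it was larger in CD8+ than in CD4+ cells by 0.72 on the log2 scale (SE 0.46, limma adjusted p = 0.954, or 0.187 with animals as a block), and for *Ifitm1* and *Ifitm2* by 0.21 (SE 0.69) and 0.16 (SE 0.40), with limma adjusted p values of 1.00. Without the block the unadjusted limma p values were 0.135 for *Ifitm3*, 0.766 for *Ifitm1* and 0.693 for *Ifitm2*. With animals as a block they were 0.0128, 0.437 and 0.445 in the same order. For this difference, 1897 of 12446 genes had an unadjusted limma p under 0.05 with the block and 793 without it. Neither edgeR nor DESeq2 called a member here or between DP and CD8+ cells. A difference between the subsets thus passed adjustment for no member, where 0.0161% of all genes were called and the block raised the calls from 2 to 173.

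**Figure D2:**
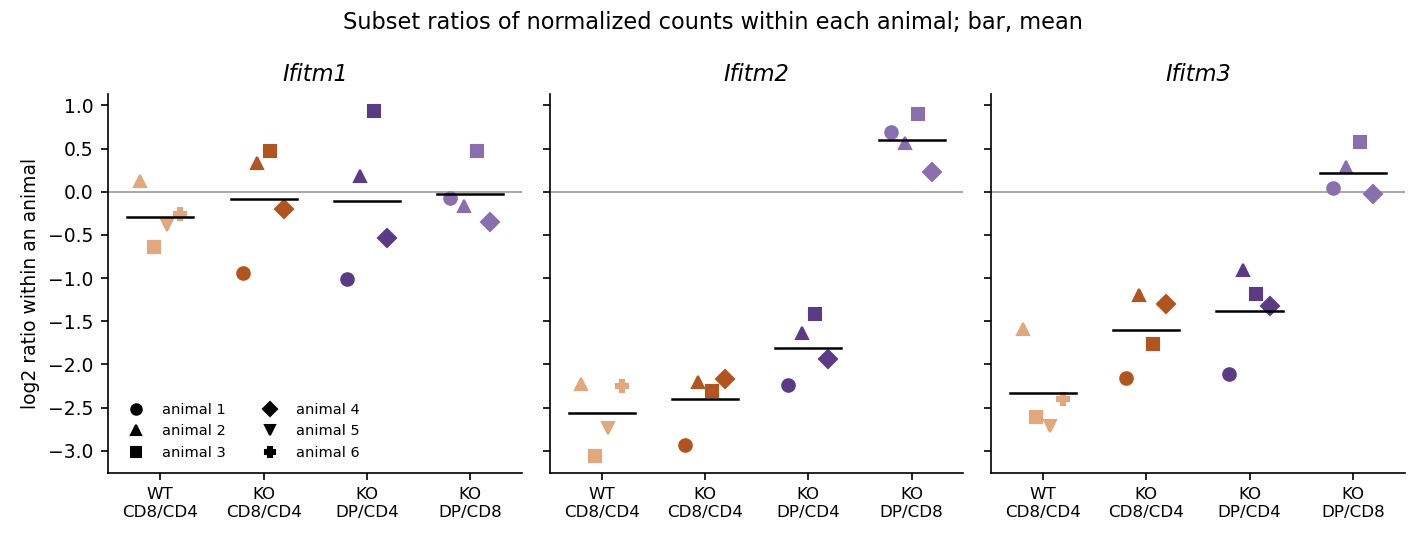
Log2 ratio of normalized counts between subsets within each animal for *Ifitm1*, *Ifitm2* and *Ifitm3*, with a symbol per animal, a bar at the mean and a line at equal levels. *Ifitm2* and *Ifitm3* lie below the line in each animal for CD8+ and DP against CD4+ cells, while the *Ifitm1* symbols fall on both sides.

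By group mean, the levels of *Ifitm2* ran from KO CD4+ (5566 ± 2100, SD, n = 4) over WT CD4+ (2579 ± 420), KO DP (1645 ± 800) and KO CD8+ (1094 ± 552) to WT CD8+ cells (438 ± 88.3). WT CD4+ and KO DP cells overlapped in range, as did KO DP and KO CD8+ cells. *Ifitm3* ran from KO CD4+ (6262 ± 2314) over KO DP (2616 ± 1691), KO CD8+ (2200 ± 1332) and WT CD4+ (2106 ± 262) to WT CD8+ cells (439 ± 177). KO CD4+ cells overlapped with KO DP cells through DP animal 2, KO DP, KO CD8+ and WT CD4+ cells overlapped with one another, and WT CD8+ cells lay below them all. *Ifitm1* averaged 5533 ± 5159 in KO CD8+, 5447 ± 4577 in KO DP, 5289 ± 3693 in KO CD4+, 2168 ± 106 in WT CD4+ and 1797 ± 347 in WT CD8+ cells, and all neighbours in that order overlapped.

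Per kilobase of exon, which adjusts for exon length but not for sequence shared with other genes, the mix of the family differed between subsets. *Ifitm1* held 25.6% ± 2.58 (SD, n = 4) of the summed per-kilobase level of the 3 genes in WT CD4+ cells and 60.4% ± 3.51 in WT CD8+ cells. *Ifitm2* held 41.5% ± 2.64 and 20.3% ± 2.17, and *Ifitm3* 32.9% ± 2.5 and 19.3% ± 4.18, in the same order. Each of these differences had an exact permutation p of 0.0286 (2-sided, the smallest possible) and of 0.0571 adjusted over 12 tests of shares. In KO cells *Ifitm1* held 22.9% ± 6.61 in CD4+, 51.1% ± 12.2 in CD8+ and 44.7% ± 11.9 in DP cells. *Ifitm3* held 40.1% ± 2.78, 31.8% ± 7.16 and 32.8% ± 6.74 of the KO family level. KO animal 4, with the lowest *Ifitm1* count in each subset, had the lowest share of *Ifitm1*, at 15.4% in CD4+, 33.9% in CD8+ and 27.6% in DP cells. Between KO CD8+ and KO CD4+ cells the shares of *Ifitm1* and *Ifitm2* did not overlap (exact permutation p = 0.0286 each, 0.0571 adjusted), and that of *Ifitm3* did (exact permutation p = 0.114). These tests leave aside that the subsets came from the same animals, and a paired permutation test of 4 animals cannot go below 0.125. Within animals, *Ifitm1* held a higher and *Ifitm2* a lower share in CD8+ and in DP than in CD4+ cells in 4 of 4 KO animals, while *Ifitm3* held a lower share in 3 of 4. Between DP and CD8+ cells the share of *Ifitm1* was lower in DP cells in 4 of 4 animals, by 4.06 to 9.19 percentage points in size, and that of *Ifitm2* was higher in 4 of 4, by 4.05 to 7.70 percentage points. The groups overlapped there (exact permutation p = 0.486 for *Ifitm1* and 0.20 for *Ifitm2*).

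**Figure D3:**
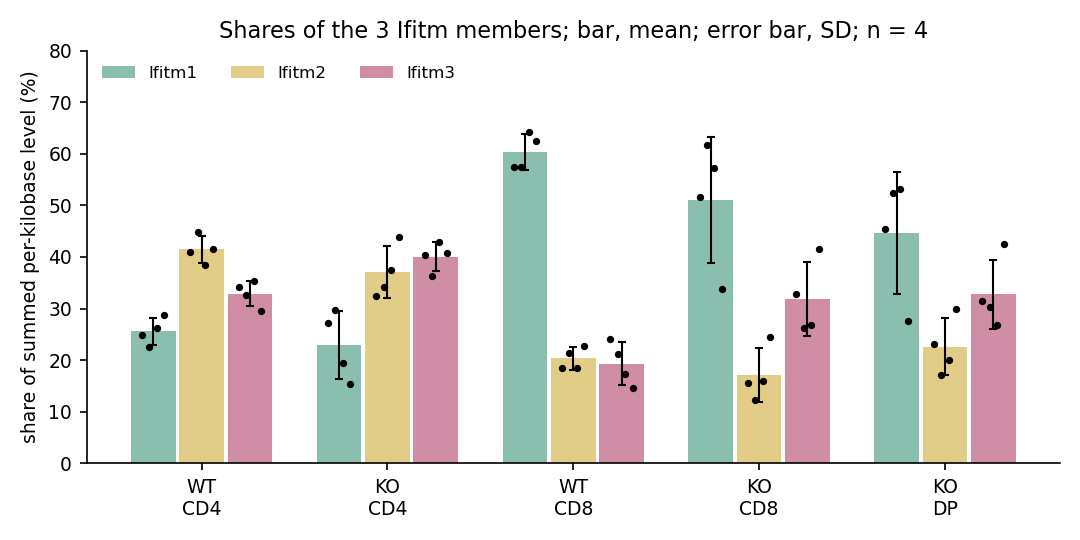
Share of each Ifitm member in the summed per-kilobase normalized count of the 3 genes, in percent, by group. Bars show the mean, error bars the SD and points the 4 libraries, and the *Ifitm1* bar stands at 25.6% in WT CD4+ and at 60.4% in WT CD8+ cells.

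Across the 20 libraries *Ifitm2* and *Ifitm3* followed each other most closely. Pearson's r of their log2 levels was 0.93, and each was the gene most like the other among 10708 genes compared, a description over libraries that share groups and animals. *Ifitm1* had an r of 0.67 with *Ifitm3*, place 250 among its most similar genes, and of 0.50 with *Ifitm2*, place 1102. After each group's mean was removed, which leaves the spread among animals, the r values were 0.91 for *Ifitm2* with *Ifitm3*, 0.82 for *Ifitm1* with *Ifitm3* and 0.81 for *Ifitm1* with *Ifitm2*. The genes most like *Ifitm1* over all libraries were *Kctd20* (0.89), *Rab1* (0.88), *Cdc42* (0.88), *Gnb1* (0.88) and *Fam69a* (0.87). Those most like *Ifitm2* after *Ifitm3* were *Cytip* (0.92), *Cpm* (0.91), *Dkkl1* (0.91) and *Bzw2* (0.90). Those most like *Ifitm3* after *Ifitm2* were *Kcnn4* (0.93), *Idh2* (0.91), *Dnajc6* (0.90) and *Frmd8* (0.89). Over all libraries, no gene besides the paralog itself stood in both of these lists. With group means removed, *1500009L16Rik* (0.92 with *Ifitm2*, 0.90 with *Ifitm3*) and *Lbr* (0.90 and 0.88) were among the 5 closest genes of both.

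Of the other Ifitm genes of the table, *Ifitm6* was lower in KO cells and *Ifitm10* was higher on average without passing. *Ifitm6*, a paralog next to *Ifitm3* at chr7:141015812-141016892 that is best known from myeloid cells, was low and fell in KO cells. It was 8.60, 4.91, 16.2 and 9.88 in KO and 36.8, 39.4, 27.2 and 62.5 in WT CD4+ animals, a difference of -2.0 on the log2 scale (adjusted p = 0.0234 by limma, SE 0.50). For CD8+ cells the counts were 0, 1.03, 19.1 and 3.79 in KO and 33.1, 36.5, 27.9 and 33.4 in WT animals, a difference of -3.17 (adjusted p = 0.0264 by limma, SE 0.86). Among KO libraries both *Ifitm6* and the summed neutrophil markers were highest in animal 3 in each subset, at 32.3 and 7781 in DP cells. Between genotypes they did not go together in every library. In KO CD4+ animal 3 the neutrophil sum was 4559, against at most 3871 in WT CD4+ cells, with *Ifitm6* at 16.2 against at least 27.2. In KO CD8+ animal 3 the sum was 3040, against 2041 to 4876 in WT CD8+ cells, with *Ifitm6* at 19.1 against 27.9 to 36.5. The part of neutrophils was not tested. The calls were lost in CD4+ cells with quantile normalization (limma adjusted p = 0.0588) and in a joint fit of 20 libraries (limma adjusted p = 0.176), and in CD8+ cells with quantile normalization (limma adjusted p = 0.0536) and by edgeR (adjusted p = 0.0740). They were also lost without WT CD4+ animal 2, 3 or 6 (limma adjusted p 0.0593 to 0.088), and in CD8+ cells without KO animal 2 or any 1 WT library (limma adjusted p 0.0532 to 0.0734). *Ifitm10*, further along the chromosome at chr7:142325835-142373779, was higher in WT CD8+ than in WT CD4+ cells by 1.30 (SE 0.14) and did not pass between KO and WT in CD4+ (0.81, adjusted p = 0.109 by limma) or CD8+ cells (0.67, adjusted p = 0.172 by limma). In each subset 3 of 4 KO animals lay above every WT library, the other KO animal lay below every WT library in CD8+ cells, and the difference passed by DESeq2 (adjusted p = 0.0255 for CD4+ and 0.0460 for CD8+ libraries) and without KO animal 3 of either subset (limma adjusted p = 0.0413 and 0.0214). Its order among KO animals differed from that of the members, with 361, 158, 146 and 388 in CD4+ and 1043, 452, 280 and 607 in CD8+ cells of animals 1 to 4. It was higher in KO CD8+ than in KO CD4+ cells in 4 of 4 animals, a difference of 1.15 that passed with animals as a block (limma adjusted p = 0.246 without and 0.0023 with it). Against CD4+ cells it was also higher in DP cells in 4 of 4 animals, by 1.01 (limma adjusted p = 0.353 without and 0.0355 with the block). *Ifitm5*, a bone gene, was at most 24.2 in any library, and *Prrt2*, a synaptic protein of the same CD225 family, fell by 2.43 on the log2 scale in CD4+ cells (adjusted p = 0.0172 by limma) and fell by 1.72 in CD8+ cells (adjusted p = 0.0075 by limma). Without WT CD4+ animal 6 the *Prrt2* call in CD4+ cells was lost (limma adjusted p = 0.0658).

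Around the members, 20 other genes of the table lay within 150 kb of the span of the 3, and 12 were high enough to be tested. In CD4+ cells 4 were called higher and 1 (*Ifitm6*) lower in KO cells, and in CD8+ cells 3 higher and 1 (*Ifitm6*) lower, beside 18.4% and 25.2% of all genes called in either direction. The median log2 fold changes of the neighbours were 0.12 in CD4+ and 0.20 in CD8+ cells, against -0.05 and -0.04 over all genes. *Pkp3*, a desmosomal plakophilin, rose by 0.49 (SE 0.08) in CD4+ and by 0.79 (SE 0.10) in CD8+ cells. *Psmd13*, a subunit of the proteasome cap, rose by 0.40 (SE 0.10) and 0.48 (SE 0.08), its CD4+ call being lost without WT animal 2, 5 or 6 (limma adjusted p 0.0552 to 0.0732). *Ric8*, a chaperone of G protein alpha subunits, rose by 0.29 (SE 0.09) in CD8+ cells, a call lost without KO animal 1 or 2 or any 1 WT library (limma adjusted p 0.0502 to 0.111). *Sirt3*, a mitochondrial deacetylase, rose by 0.71 (SE 0.18) in CD4+ cells, a call lost without KO animal 1 or any 1 WT library (limma adjusted p 0.0562 to 0.0798). *Athl1*, the tested gene nearest to *Ifitm2*, was at -0.19 (SE 0.12, limma adjusted p = 0.267) and -0.25 (SE 0.12, limma adjusted p = 0.159). No tested neighbour had a fold change as high as that of any member, but the members were picked for this rise.

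**Figure D4:**
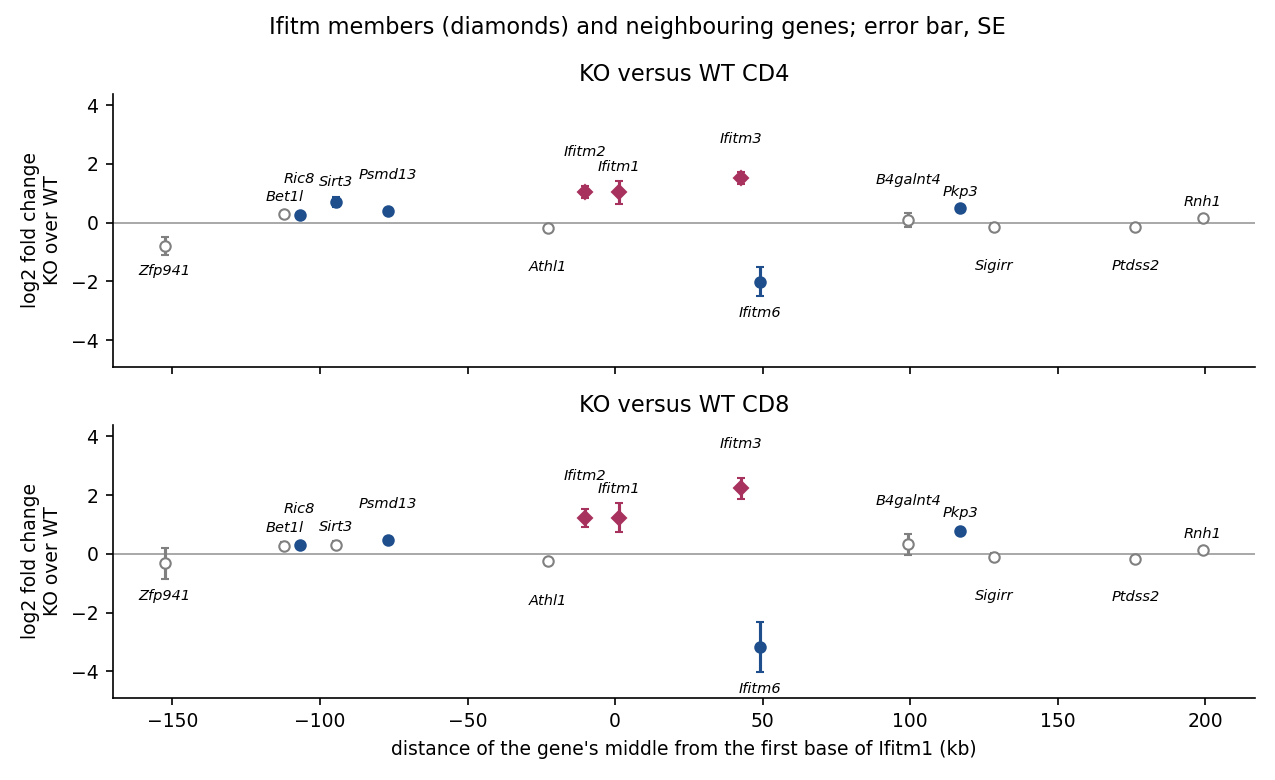
Log2 fold change of KO over WT cells (points, error bars SE) in CD4+ (top) and CD8+ cells (bottom) for the members and the tested neighbours, by distance in kb of each gene's middle from the first base of *Ifitm1*. Diamonds mark the members, filled circles genes that passed and open circles genes that did not, and *Ifitm6* is the only called gene below 0.

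Since the members are interferon targets, other interferon-induced genes were set beside them. Of 47 other type I interferon-stimulated genes, 2 rose and 8 fell in KO CD4+ cells (37 did not pass), and 6 rose and 8 fell in KO CD8+ cells (33 did not pass). Over all genes, 8.59% were called higher and 9.77% lower in CD4+ cells, and 12.6% higher and 12.5% lower in CD8+ cells. The median log2 fold changes of the list were -0.10 and -0.07, near the -0.05 and -0.04 of all genes. *Mx1*, a dynamin-like GTPase that blocks viruses, fell by 1.31 (SE 0.22) in CD4+ and by 1.23 (SE 0.21) in CD8+ cells. *Stat2*, a transcription factor of type I interferon signalling, fell by 0.64 (SE 0.10) in CD8+ cells. Among those that rose were *Lgals3bp*, a secreted glycoprotein (0.57, SE 0.10), and *Tor3a*, a torsin of the endoplasmic reticulum (0.59, SE 0.10), both in CD8+ cells. *Ifit3b*, a tetratricopeptide protein, had the highest fold change of the list and did not pass, at 0.64 (SE 0.24, limma adjusted p = 0.0845) in CD4+ and 1.35 (SE 0.58, limma adjusted p = 0.114) in CD8+ cells.

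Of 27 interferon-gamma response genes, 15 fell in KO CD4+ cells while 12 did not pass, and 11 fell in KO CD8+ cells while 16 did not pass. Called lower over all genes were 9.77% in CD4+ and 12.5% in CD8+ cells. The medians of the list were -0.47 and -0.42. The part of other spleen cells in these falls was not tested. *Ciita*, the master regulator of MHC class II genes, fell by 2.62 (SE 0.42) in CD4+ cells, *Cxcl9*, a chemokine for activated T cells, fell by 2.58 (SE 0.50) in these cells and fell by 2.77 (SE 0.59) in CD8+ cells, and *Gbp8*, a guanylate-binding protein, fell by 1.38 (SE 0.20) in CD8+ cells. Of the 74 genes of these interferon lists together, none had a KO to WT fold change as high as that of any member in CD4+ cells, and in CD8+ cells none was as high as *Ifitm3* and 2, *Ifit3* and *Ifit3b*, were above *Ifitm1* and *Ifitm2*. The members were picked for this rise, so their place beside the lists is a description only.

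**Figure D5:**
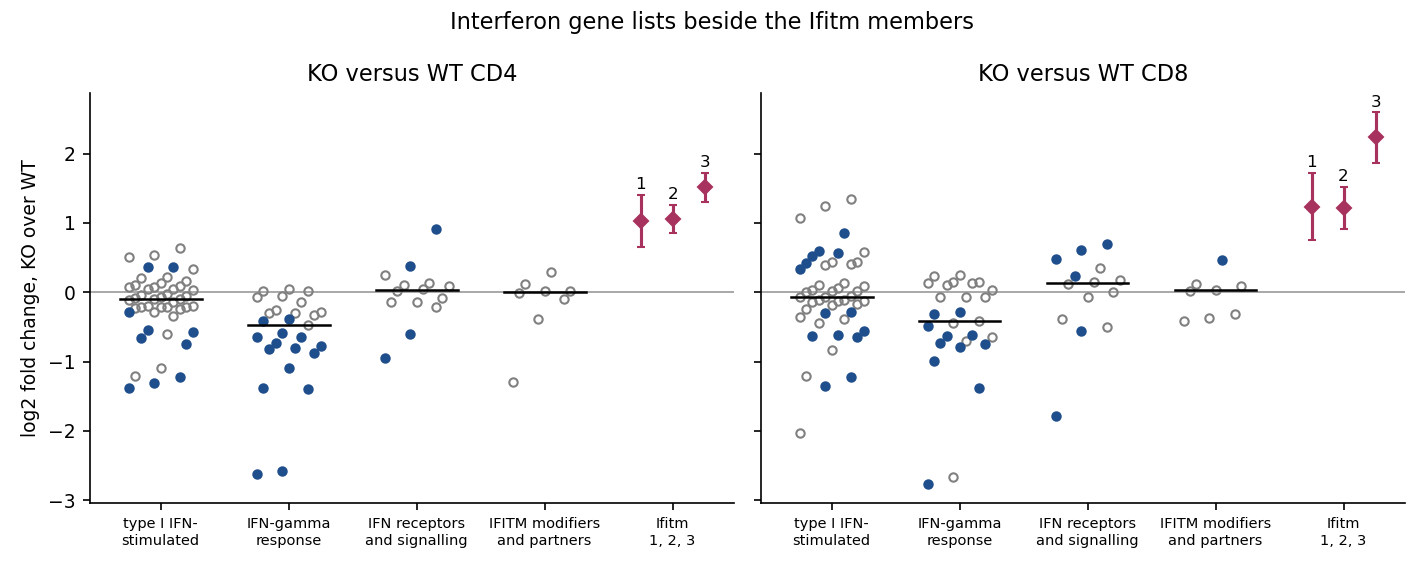
Log2 fold change of KO over WT cells in CD4+ (left) and CD8+ cells (right) for the tested genes of 4 lists and for *Ifitm1*, *Ifitm2* and *Ifitm3* (diamonds, error bars SE). Filled circles passed the test, open circles did not, bars mark list medians, and the interferon-gamma response genes have medians of -0.47 and -0.42.

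Among 16 interferon receptor and signalling genes, 14 were tested, 2 rose and 2 fell in CD4+ cells, and 4 rose and 2 fell in CD8+ cells. The shares over all genes are those given above for the type I list. *Ifng*, the ligand interferon-gamma, fell by 0.95 (SE 0.26) in CD4+ and by 1.79 (SE 0.26) in CD8+ cells. *Ifngr1*, the ligand-binding chain of its receptor, rose by 0.91 (SE 0.16) and 0.70 (SE 0.18). The kinase gene *Jak1* rose by 0.39 (SE 0.11) and 0.61 (SE 0.13), *Jak2* rose by 0.48 (SE 0.07) in CD8+ cells, and *Tyk2*, which serves the type I receptor, fell by 0.61 (SE 0.13) in CD4+ cells and fell by 0.55 (SE 0.08) in CD8+ cells. The *Ifng* call in CD4+ cells was lost with no variance trend (limma adjusted p = 0.0773), in the joint fit (limma adjusted p = 0.0886) and without WT animal 3, 5 or 6 (limma adjusted p 0.0682 to 0.0993), that of *Ifngr1* in CD8+ cells without KO animal 4 or WT animal 3, 5 or 6 (0.0559 to 0.0667), that of *Jak1* in CD4+ cells without KO animal 1 or any 1 WT library (0.052 to 0.0961) and that of *Tyk2* in CD4+ cells without WT animal 6 (0.0562). Of 8 genes whose products modify or bind IFITM proteins, such as the methyltransferase gene *Setd7* and the ubiquitin ligase gene *Nedd4*, *Zdhhc20*, a palmitoyltransferase of IFITM3, rose by 0.46 (SE 0.10) in CD8+ cells, and was at 0.30 (SE 0.09, limma adjusted p = 0.0517) in CD4+ cells. The other 7 did not pass in either subset.

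In WT cells 36 of the 47 type I interferon-stimulated genes were lower in CD8+ than in CD4+ cells and 3 were higher, with a median of -0.53 against 0.01 over all genes, of which 22.3% were called lower. Of the 27 interferon-gamma response genes 17 were lower and 3 higher there, with a median of -0.27, and 7 did not pass. Only 2 of the 74 listed interferon genes had a lower value than *Ifitm2* and 3 a lower one than *Ifitm3*, the lowest being *Slfn5* at -3.29, while 42 were lower than *Ifitm1*. In KO cells 9 of the 47 were called lower in CD8+ than in CD4+ cells while 38 did not pass, and 5 were called lower in DP than in CD4+ cells while 42 did not pass. Over all genes 2.73% were called lower in the first of these comparisons and 1.26% in the second. For the interferon-gamma response genes, 5 were called lower and 22 did not pass between KO CD8+ and CD4+ cells, and 3 were called lower, 1 higher and 23 did not pass between DP and CD4+ cells.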

How the data were processed

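RNA from 20 libraries (poly(A) selected, strand-specific, paired reads of 47 bases, day 10) was analysed from 1 table of 17101 genes. Before they deposited it, the authors had aligned the reads to mm10 with STAR (2.7.2b per the labels), counted them per gene by strand with summarizeOverlaps, and divided the counts by DESeq2 size factors, so that the table holds a normalized signal per gene. Whole reads were recovered from that signal for 100% of values (tolerance 1e-06).

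Genotypes and subsets were compared with limma 3.58.1 (trend, R 4.3.3) on log2(normalized count + 1) over genes with a mean of at least 10, with Benjamini-Hochberg adjustment over all genes and a threshold of 0.05. Fold changes are on that scale, which understates the change of low genes. Single values and shares were tested by 2-sided exact permutation over libraries in Python 3.11.15 with scipy 1.17.1. The fits were tested on simulated counts with the same variance setting for all genes and no effect of animals, which is simpler than these data. edgeR 4.0.16 and DESeq2 1.42.0 on the recovered reads, another pseudocount, filter, scaling or variance model, and fits without 1 library were alternatives. The members and gene lists were chosen with earlier results of these data known. Named were the members, the other Ifitm genes, the neighbours within 150 kb, up to 3 called genes with the largest rise and fall per list and subset, and the 5 genes most like each member among those with a mean of at least 50. Of the called genes under this rule, *Mx2*, *Rsad2*, *Samhd1*, *Cxcl10*, *Iigp1*, *Slfn5* in CD8+ cells and *Lgals3bp* in CD4+ cells are not given above. *Ifit3*, *Ifit3b*, *Setd7*, *Nedd4*, *Ly6c2*, *Ccr2* and *Slfn5* in WT cells were named after their values were seen.

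Within a genotype, libraries with equal numbers deviated together from their group means (r of 0.376 to 0.707 among KO and 0.224 to 0.311 among WT subsets, every pair over 0.1), so that numbers pair the samples there. No label says that the numbers mark separate animals, and p-values then measure the spread between these libraries. No pair of libraries of a group agreed within counting noise (smallest chi-square per degree of freedom 11.0).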

Additional observations from a re-analysis of the deposited data

Results flagged for a closer look

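Among 25 sets of 4 libraries (the levels of *Ifitm1*, *Ifitm2*, *Ifitm3*, *Ifitm6* and *Ifitm10* in each group), 2 had a library set far apart from the other 3, by a gap to the nearest library past Dixon's 95% critical value. *Ifitm2* in KO CD4+ animal 2 was 8695, against 4196 to 4795 in the other KO CD4+ animals, with a gap of 0.867 of the range. *Ifitm3* in KO CD8+ animal 2 was 4181, against 1374 to 1781 in the other KO CD8+ animals, with a gap of 0.855 of the range. Both values belong to KO animal 2, and chance alone sets apart about 5% of such sets.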

How the results depend on the processing

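The KO to WT difference of the members kept its sign in all alternatives, from 0.62 to 1.39 in CD4+ and 0.69 to 2.06 in CD8+ cells for *Ifitm1*, 0.82 to 1.17 and 0.91 to 1.5 for *Ifitm2*, and 1.29 to 1.66 and 1.87 to 2.48 for *Ifitm3*. The calls of *Ifitm2* and *Ifitm3* between WT CD8+ and CD4+ cells and of *Ifitm2* between KO CD8+ and CD4+ cells were kept in all of them. Between KO and WT the animals share only numbers 2 and 3, with r of their deviations from 0.0268 to 0.167. The block there rests on a shared number alone, and its fit kept only the libraries numbered 2 and 3 of each genotype. The effect of the block on KO to WT calls cannot be told apart from that of dropping the other libraries.

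Called genes were 2274 in KO versus WT CD4+ cells, 1403 with no variance trend, 1304 in a joint fit of 20 libraries, 27 with the replicate number as a block (libraries 2 and 3 only) and 628 to 2963 without 1 library (over 1.5 times fewer without KO animal 1 or any WT library). For CD8+ cells they were 3118, 2017 in the joint fit, 85 with the block (libraries 2 and 3 only) and 1633 to 4092 without 1 library (over 1.5 times fewer without any WT library). For KO CD8+ versus CD4+ cells they were 514, 956 by DESeq2, 299 with no trend, 885 in the joint fit, 2305 with the block, 280 without KO animal 2 and 233 to 486 without 1 library (over 1.5 times fewer without CD4+ animal 1, 3 or 4 or CD8+ animal 2). For DP versus CD4+ cells they were 237, 728, 124, 1459, 860, 61 and 84 to 279 in the same order (over 1.5 times fewer without any CD4+ library or DP animal 2). DP versus CD8+ cells gave 1, or 3 by DESeq2. WT CD8+ versus CD4+ cells gave 5592, 1610 in the joint fit. The interaction gave 2, 7 with no filter on low values, 1 by edgeR, 21 by DESeq2, 0 with no trend, 1 in the joint fit, 173 with the block, 0 without KO animal 2 and 0 to 5 without 1 library (4 without KO CD8+ animal 1, 5 without KO CD8+ animal 3, 3 without KO CD4+ animal 3, 2 without WT CD8+ animal 3 and 0 without any other library). On the recovered whole reads edgeR called 2265 and 3055 genes between KO and WT CD4+ and CD8+ cells.

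*Ifitm3* in DP versus CD4+ cells (-1.38) passed by DESeq2 (-1.25), in the joint fit (-1.38), with the block (-1.38) and without KO animal 2 (-1.54), and lay at -1.77 to -1.15 without 1 library, passing without KO DP animal 2. *Ifitm2* there did not pass with no trend (-1.81) and lay at -2.10 to -1.57 without 1 library. *Ifitm3* in KO CD8+ versus CD4+ cells did not pass by edgeR (-1.5) or with no trend (-1.60) and lay at -1.97 to -1.38 without 1 library. *Ifitm1* in WT CD8+ versus CD4+ cells (-0.29) did not pass with no filter, with no trend or in the joint fit (-0.29 each) or by edgeR (-0.27), and lay at -0.40 to -0.18 without 1 library. The uncalled *Ifitm1* differences changed sign: KO CD8+ versus CD4+ by edgeR (0.070) and DESeq2 (0.071) and at -0.63 to 0.33 without 1 library, DP versus CD4+ by edgeR (0.048) and DESeq2 (0.046) and at -0.62 to 0.37, DP versus CD8+ without KO animal 2 (0.016) and at -0.54 to 0.52, and the interaction at -0.34 to 0.62. So did the *Ifitm2* interaction (-0.14 to 0.40), *Ifitm3* in DP versus CD8+ cells (-0.16 to 0.58), *Ifitm6* in DP versus CD4+ cells by edgeR and DESeq2 (0.10 each) and *Ifitm10* in DP versus CD8+ cells (-0.45 to 0.23) and in the interaction (-0.47 to 0.17). *Ifitm6* between KO and WT lay at -1.36 in CD4+ and -1.55 in CD8+ cells with a pseudocount of 10, and *Ifitm10* at 0.15 and 0.08 with the block and at most at 1.09 (quantile normalization, limma adjusted p = 0.0409) and 0.97 (without KO CD8+ animal 3). With the block, which kept only libraries 2 and 3 of each genotype, all KO to WT calls of *Ifitm6*, the neighbours and the listed genes named above were lost except *Gbp8* in CD8+ cells, as for *Ifng* (-0.36 in CD4+ and -1.52 in CD8+ cells, limma adjusted p = 0.438 and 0.0699). Further calls were lost for *Jak1* in CD4+ cells with quantile normalization, no trend or the joint fit (limma adjusted p 0.0654 to 0.224), *Psmd13* in CD4+ cells with no trend (limma adjusted p = 0.0545) and *Ric8* in CD8+ cells with no filter, quantile normalization or no trend (limma adjusted p 0.0537 to 0.0793). Without the length correction *Ifitm1* held 31.8% in WT CD4+ and 67.4% in WT CD8+ cells, *Ifitm2* 37.5% and 16.4%, and *Ifitm3* 30.7% and 16.2%. In WT CD4+ cells *Ifitm1* thus lay above *Ifitm3* without the correction and below it per kilobase (25.6% against 32.9%). The cause of these changes was not tested.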
